A study of Mus musculus with 12 samples.

Results

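The unfolded protein response genes described here are 10 genes chosen by symbol: Hspa5, Hsp90b1, Calr, Pdia4, Sdf2l1, Manf, Creld2, Xbp1, Atf4 and Ddit3. All 10 were found among the 27179 genes of the count table, and all 10 were among the 15298 genes that passed the low-count filter. RNA was sequenced from the cortex of mice in 12 libraries, 4 in each of 3 groups. Humanized mutant mice (MUT, genotype Grn-/-;GRNmEx5) lacked mouse progranulin and carried GRNmEx5, an allele whose structure the labels do not spell out, and were 272 to 309 days old. Knockout mice (KO, Grn-/-) lacked mouse progranulin and were 282 to 308 days old. Wild-type mice (WT, Grn+/+) were 287 days old for replicate 1 and 375 days old for replicates 2, 3 and 4. MUT and KO thus share the loss of mouse Grn. The level of the human transcript was not analysed here, so nothing in these counts says how strongly the GRNmEx5 allele was expressed. The comparisons address whether loss of progranulin, with or without the human allele, was accompanied by a change in the transcripts of this stress response.

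The unfolded protein response is the programme by which a cell matches the folding capacity of its endoplasmic reticulum (ER) to the load of new secreted and membrane proteins. The sensors PERK, IRE1 and ATF6 sit in the ER membrane and are held quiet by the chaperone BiP until unfolded proteins draw it away. ATF6 and the spliced form of XBP1 raise ER chaperones and folding enzymes, whereas PERK slows translation and raises ATF4 and, downstream of it, CHOP. Neurons and other secretory cells use the same machinery at rest, so each of these genes has a basal level in cortex. Counts per gene do not separate spliced from unspliced Xbp1, and they do not measure the cleavage or phosphorylation that switches the sensors on.

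The classic binding sequence of ATF6 is the ER stress response element, written as CCAAT and CCACG separated by 9 bases. It was searched on both strands of RefSeq promoter windows (GRCm38.p6, the assembly also called mm10), which run from 250 bases before to 50 bases after a gene's start. Of the 10 genes, 9 had a window, all but Manf. The element was found in the windows of 4 of the 9, Hspa5, Hsp90b1, Calr and Creld2, against 0.119% of the 32851 windows in the table. These 4 are shown because they place the best known control sequence of the response in front of genes whose transcripts are measured below. Each run gives the 220 bases before the start on the gene's own strand, with CCAAT and CCACG in capitals. Where the element lies on the opposite strand, the capitals read CGTGG and ATTGG.

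Hspa5 (chr2:34771870-34772089, plus strand): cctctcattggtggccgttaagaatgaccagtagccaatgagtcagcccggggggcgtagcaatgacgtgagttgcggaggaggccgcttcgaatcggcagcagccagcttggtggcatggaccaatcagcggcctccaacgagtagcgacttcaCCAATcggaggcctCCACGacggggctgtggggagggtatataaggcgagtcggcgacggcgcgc
Hsp90b1 (chr10:86705445-86705664, minus strand): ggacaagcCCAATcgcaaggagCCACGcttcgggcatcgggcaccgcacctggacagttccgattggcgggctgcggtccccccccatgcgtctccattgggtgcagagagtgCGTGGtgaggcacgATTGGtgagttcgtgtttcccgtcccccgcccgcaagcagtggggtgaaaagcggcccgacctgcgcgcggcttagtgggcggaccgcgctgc
Calr (chr8:84846932-84847151, minus strand): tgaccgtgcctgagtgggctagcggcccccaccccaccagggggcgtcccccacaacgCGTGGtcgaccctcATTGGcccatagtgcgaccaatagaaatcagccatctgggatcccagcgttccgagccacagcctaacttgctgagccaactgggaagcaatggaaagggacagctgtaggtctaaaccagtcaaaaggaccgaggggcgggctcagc
Creld2 (chr15:88819426-88819645, plus strand): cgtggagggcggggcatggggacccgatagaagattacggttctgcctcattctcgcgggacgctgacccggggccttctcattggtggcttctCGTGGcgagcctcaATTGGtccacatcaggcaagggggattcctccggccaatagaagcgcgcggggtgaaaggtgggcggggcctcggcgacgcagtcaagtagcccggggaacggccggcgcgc

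The end of the element nearest to the start lay 47 bases before it in Hspa5, 89 and 194 bases before it in the 2 copies of Hsp90b1, 144 in Calr and 108 in Creld2. A second form of the element, ATTGG and CCACG separated by 1 base, was in none of the 9 windows and in 0.0365% of all windows. The core of the UPR element, TGACGTGG, was likewise in none of the 9 and in 0.676% of all, and the amino acid response element read by ATF4, TGATGNAA, in none and in 3.97%. Such matches describe letters in these windows only. They do not show binding, and a window without a match says nothing of the factor.

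Grn itself told MUT and KO from WT, but it did not tell MUT from KO. It measured 11.5, 13.8, 13.3 and 15.3 CPM (counts scaled to a common library size after TMM adjustment) in MUT replicates 1 to 4, 12.9, 10.8, 13.4 and 13.97 CPM in KO, and 57.2, 59.9, 57.6 and 57.0 CPM in WT. Library totals ranged from 16381221 to 20782195 counts. Markers of cortical excitatory neurons were present in all libraries, with a summed level over 8 genes of 1816 to 2178 CPM in MUT, 1943 to 2259 CPM in KO and 1983 to 2428 CPM in WT. In 3 libraries, MUT replicate 1, KO replicate 3 and WT replicate 4, choroid plexus markers were high, with Ttr at 1283, 1839 and 598 CPM against at most 42.8 CPM elsewhere. WT replicates 2, 3 and 4 were high in striatal markers, with Ppp1r1b at 155, 253 and 444 CPM against 63.3 CPM in WT replicate 1, 59.7 to 72.5 CPM in MUT and 68.1 to 116 CPM in KO; the sum over all 18 striatal markers was 542 to 648 CPM in MUT, 541 to 784 CPM in KO and 567 to 3372 CPM in WT. In each of the 12 libraries Xist and Ddx3y pointed to the other sex than the one labelled, and since both codings divide the libraries the same way, the sex term of the fit is unaffected. Whether every library is a different animal is not stated, and the p-values reflect variation among these libraries, which may be technical. In bulk tissue, fewer cells of a type and less RNA per cell cannot be told apart.

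Compared per length of transcript, the ER chaperones that hold most of the lumenal folding capacity were the highest of the 10. Calreticulin (Calr), the calcium-binding lectin chaperone of glycoproteins, averaged 184 RPKM (CPM per kilobase of summed exon length) over the 12 libraries. Hsp90b1 (GRP94), the ER member of the HSP90 family, averaged 144 RPKM, and Hspa5 (BiP) 125 RPKM. Atf4 followed at 84.99 RPKM and Xbp1 at 55.8 RPKM. Ddit3 (CHOP) was at 25.5 RPKM, Manf at 22.1 RPKM and Pdia4 at 21.9 RPKM, while Creld2 and Sdf2l1 were lowest at 15.6 and 13.9 RPKM. Each gene exceeded the next in this order in at least 11 of the 12 libraries, except that Manf exceeded Pdia4 in 6, so those neighbours are not ordered. The lowest and highest library differed 1.31-fold for Hsp90b1 and 2.11-fold for Sdf2l1, the narrowest and widest of the 10.

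None of the 10 genes passed an adjusted p of 0.05 in any of the comparisons (edgeR quasi-likelihood test with Benjamini-Hochberg adjustment over all genes). Over all tested genes, 0.0131% passed in MUT against WT, 0.49% in KO against WT and 0.00654% in MUT against KO. At an unadjusted p below 0.05 there were 2 of 10 in MUT against WT, Ddit3 and Manf, where 10.9% of all genes lay. There were also 2 of 10 in KO against WT, Ddit3 and Atf4, where 17.6% of all genes lay, and 0 of 10 in MUT against KO, where 5.67% did. DESeq2 called 0 of the 10 in MUT against WT, where it called 0.34% of all genes. It called 1, Atf4, in KO against WT, where it called 4.23%, and 0 in MUT against KO, where it called 0.0981%. The limma-voom fit called 0 of the 10 in each, where it called 0.0131% of all genes in MUT against WT, 0.34% in KO against WT and 0.00654% in MUT against KO. The values below are therefore given as levels and intervals.

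**Figure D1:**
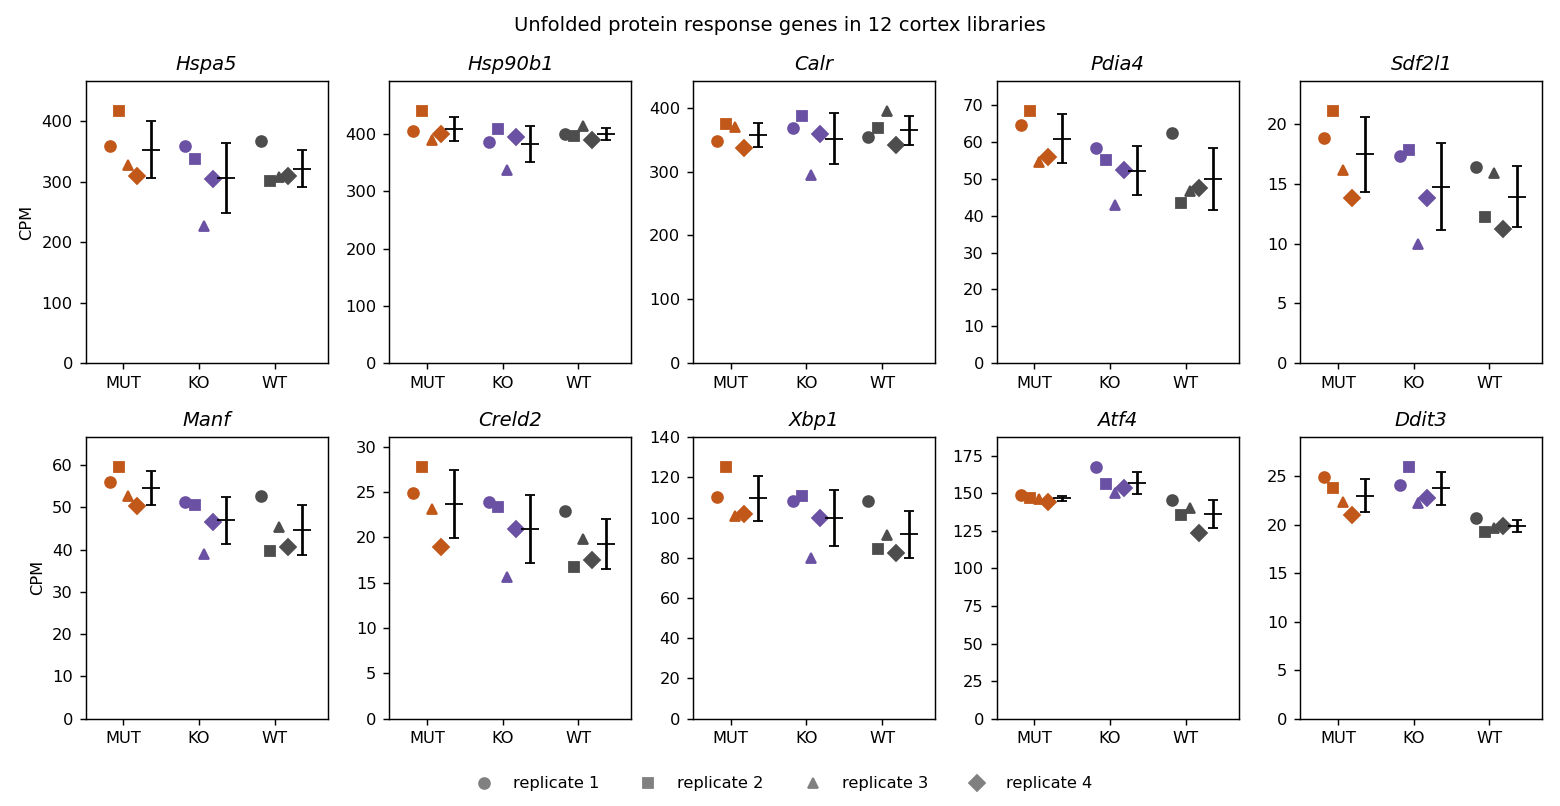
CPM of each of the 10 genes (vertical axes, each from 0) in MUT, KO and WT libraries, with a marker shape for each replicate and the mean ± SD (n = 4) at the right of each group. KO replicate 3 is the lowest of the 12 libraries in 8 panels, and in the Ddit3 panel all MUT and KO libraries, from 21.0 CPM upward, sit above all WT libraries, which reach 20.7 CPM.

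Hspa5 encodes BiP, the HSP70 chaperone of the ER lumen that both folds proteins and restrains the stress sensors. It lies on mm10 chromosome 2, 34772090 to 34776529, plus strand, with 8 exons. It measured 359, 417, 327 and 309.99 CPM in MUT replicates 1 to 4, 358, 338, 227 and 304 CPM in KO, and 368, 302, 307 and 309 CPM in WT. The groups overlapped, WT replicate 1 standing above the other WT libraries and KO replicate 3 far below every other library. Fitted over all libraries, the log2 fold change was 0.15 in MUT against WT (95% interval -0.19 to 0.49, edgeR adjusted p = 0.746), -0.06 in KO against WT (-0.38 to 0.25, adjusted p = 0.863) and 0.21 in MUT against KO (-0.11 to 0.54, adjusted p = 0.972).

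Hsp90b1 (chromosome 10, 86690841 to 86705444, minus strand) encodes GRP94, which folds a restricted set of clients that includes integrins and Toll-like receptors. It averaged 410 ± 21.4 CPM in MUT, 382 ± 31.7 CPM in KO and 400.2 ± 10.2 CPM in WT (SD, n = 4 each). Calr (chromosome 8, 84842088 to 84846931, minus strand) averaged 357 ± 18.2 CPM in MUT, 352 ± 40.1 CPM in KO and 365 ± 22.7 CPM in WT. These were the steadiest of the chaperones, and in both the lowest library was KO replicate 3, at 337 CPM for Hsp90b1 and 294 CPM for Calr. Their fold changes had the narrowest intervals of the chaperones: in MUT against WT they were 0.04 (-0.10 to 0.19) for Hsp90b1 and 0.03 (-0.13 to 0.19) for Calr on the log2 scale. In KO against WT they were -0.06 (-0.19 to 0.07) and -0.03 (-0.18 to 0.12).

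Pdia4 (chromosome 6, 47796141 to 47813512, minus strand) encodes ERp72, a protein disulfide isomerase that forms and rearranges disulfide bonds. It measured 64.6, 68.4, 54.6 and 56.0 CPM in MUT, 58.5, 55.2, 43.0 and 52.5 CPM in KO, and 62.5, 43.5, 46.6 and 47.6 CPM in WT. All MUT libraries were above WT replicates 2, 3 and 4, and WT replicate 1 lay among the MUT libraries. Its log2 fold change was 0.24 in MUT against WT (-0.06 to 0.53, adjusted p = 0.552) and 0.05 in KO against WT (-0.23 to 0.32, adjusted p = 0.885).

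Sdf2l1 (chromosome 16, 17130138 to 17132383, minus strand) encodes a lumenal partner of the BiP co-chaperones. It was the least abundant of the 10 and the most variable, with 18.9, 21.1, 16.2 and 13.9 CPM in MUT, 17.4, 17.8, 9.98 and 13.9 CPM in KO, and 16.4, 12.2, 15.9 and 11.3 CPM in WT. The 3 groups overlapped across most of their range. Its log2 fold change was the largest of the 10 in MUT against WT, 0.36, but with the widest interval (-0.11 to 0.84, adjusted p = 0.568). The value in KO against WT was 0.09 (-0.35 to 0.53, adjusted p = 0.860).

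Manf (chromosome 9, 106887415 to 106891938, minus strand) encodes a small ER-resident protein that is secreted under stress and is studied as a neurotrophic factor. It measured 56.0, 59.6, 52.6 and 50.3 CPM in MUT, 51.3, 50.6, 39.0 and 46.6 CPM in KO, and 52.7, 39.6, 45.4 and 40.7 CPM in WT. MUT libraries lay between 50.3 and 59.6 CPM and overlapped WT only through WT replicate 1. By edgeR the log2 fold change was 0.28 in MUT against WT (0.03 to 0.53, unadjusted p = 0.0292, adjusted p = 0.428), 0.07 in KO against WT (-0.16 to 0.30, adjusted p = 0.792) and 0.21 in MUT against KO (-0.02 to 0.45, adjusted p = 0.902).

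Creld2 (chromosome 15, 88819646 to 88826681, plus strand) encodes an ER protein with disulfide isomerase activity that is raised early in ER stress. It averaged 23.7 ± 3.72 CPM in MUT, 20.9 ± 3.78 CPM in KO and 19.3 ± 2.77 CPM in WT (SD, n = 4 each). MUT replicates 1, 2 and 3 were above all WT libraries, at 24.9, 27.8 and 23.1 CPM against a WT range of 16.8 to 22.9 CPM, and MUT replicate 4 was within that range at 18.9 CPM. Fitted over all libraries, the log2 fold change was 0.31 in MUT against WT (-0.06 to 0.68, adjusted p = 0.525) and 0.12 in KO against WT (-0.22 to 0.47, adjusted p = 0.734).

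Of the 3 transcription factors, Xbp1 followed the chaperones. Xbp1 (chromosome 11, 5520967 to 5525872 in the table, plus strand) is the target of the IRE1 endonuclease, and its counts here pool both splice forms. It measured 110.2, 125, 101 and 102 CPM in MUT, 108, 111, 79.9 and 99.8 CPM in KO, and 108, 84.5, 91.5 and 82.5 CPM in WT. As for Hspa5, WT replicate 1 was the highest WT library and KO replicate 3 was the lowest of all 12. Its log2 fold change was 0.24 in MUT against WT (-0.04 to 0.52, adjusted p = 0.525) and 0.12 in KO against WT (-0.15 to 0.38, adjusted p = 0.665).

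Atf4 and Ddit3, the factors of the PERK branch, had the smallest p-values of the 10 in KO against WT. Atf4 (chromosome 15, 80255184 to 80257541, plus strand) encodes a factor made mainly through translational control when eIF2 is phosphorylated, so its transcript is a partial readout. It measured 149, 147, 147 and 144 CPM in MUT, 168, 156, 149.9 and 154 CPM in KO, and 146, 135, 140.3 and 123 CPM in WT. Every KO library was above every WT library, and every MUT library was below every KO library. By edgeR the log2 fold change was 0.20 in KO against WT (0.09 to 0.32, unadjusted p = 0.0024, adjusted p = 0.0900), 0.11 in MUT against WT (-0.02 to 0.23, adjusted p = 0.525) and -0.10 in MUT against KO (-0.22 to 0.02, adjusted p = 0.932). DESeq2 gave an adjusted p of 0.0252 for KO against WT.

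Ddit3 (chromosome 10, 127290793 to 127296288, plus strand) encodes CHOP, a factor linked to apoptosis in prolonged ER stress. It measured 24.9, 23.8, 22.3 and 21.0 CPM in MUT, 24.1, 25.9, 22.2 and 22.7 CPM in KO, and 20.7, 19.2, 19.6 and 19.8 CPM in WT. It was the only one of the 10 whose MUT and KO libraries were all above all WT libraries. Taken singly, 3.37% of all tested genes were above WT without overlap in MUT and 4.29% in KO. The share of all genes above WT in both was not computed. Fitted over all libraries, the log2 fold change was 0.26 in KO against WT (0.11 to 0.42, unadjusted p = 0.00282 and adjusted p = 0.0961 with edgeR) and 0.23 in MUT against WT (0.06 to 0.39, unadjusted p = 0.0121 and adjusted p = 0.397). Both comparisons use the same WT libraries, so their values are given side by side and are not separate evidence. In MUT against KO the value was -0.04 (-0.19 to 0.12, adjusted p = 0.997). Ddit3 overlaps exons of Mars on the opposite strand, Atf4 and Calr each overlap exons of an unnamed gene on the opposite strand and Pdia4 overlaps the microRNA gene Mir704 on its own strand, and because it is not known whether reads were assigned by strand, the counts of these 4 genes carry that doubt.

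Few of the 10 genes had groups that did not overlap. Ddit3 was above WT without overlap in MUT, as were 3.37% of all tested genes. Atf4 and Ddit3 were above WT in KO, as were 4.29% of all genes, and Atf4 was lower in MUT than in KO, as were 1.85%. In MUT against WT, 10 of 10 fold changes were above 0, where 51% of all genes were, with a median of 0.23 on the log2 scale over the 10 and 0.0036 over all genes. In KO against WT 7 of 10 were above 0, with a median of 0.08, and in MUT against KO 8 of 10, with a median of 0.16, where 51.3% and 48.2% of all genes were above 0. Because the 10 genes moved together between libraries, these signs are not 10 separate observations. They also depended on the libraries and terms: with sex and age as terms, 3 of 10 were above 0 in MUT against WT (median -0.03) and 2 of 10 in KO against WT (median -0.26). Of the WT libraries only replicate 1 lay within the age range of MUT and KO, so the values with an age term lean on that library. Among libraries labelled male, where MUT is replicate 3 alone, 1 of 10 was above 0 in MUT against KO (median -0.08). The 95% intervals lay within a 1.5-fold change in either direction for 8 of 10 genes in MUT against WT, 10 of 10 in KO against WT and 9 of 10 in MUT against KO.

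The mean level of astrocyte markers was higher in MUT than in WT, but the markers did not move alike. Over 6 of 6 markers tested, their mean level in centred log2 CPM was 0.01 to 0.26 in MUT, -0.07 to 0.08 in KO and -0.26 to -0.02 in WT, so MUT and WT did not overlap. Their summed level, which did overlap, was 3351 to 3471 CPM in MUT, 3086 to 3345 CPM in KO and 3132 to 3378 CPM in WT. Gfap, the intermediate filament of reactive astrocytes, was at 216 to 303 CPM in MUT, 193 to 264 CPM in KO and 74.8 to 154 CPM in WT. The other markers overlapped between MUT and WT. Aqp4 was at 89.0 to 126 CPM in MUT and 77.0 to 101 CPM in WT. Gjb6 was at 50.2 to 76.8 CPM and 38.8 to 57.8 CPM. Slc1a3 was at 436 to 467 CPM in MUT and 447 to 495 CPM in WT. The MUT values of Slc1a2 (2426 to 2486 CPM) and Aldh1l1 (63.0 to 71.4 CPM) lay within their WT ranges. The part of astrocytes in the values of the 10 genes was not tested.

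**Figure D2:**
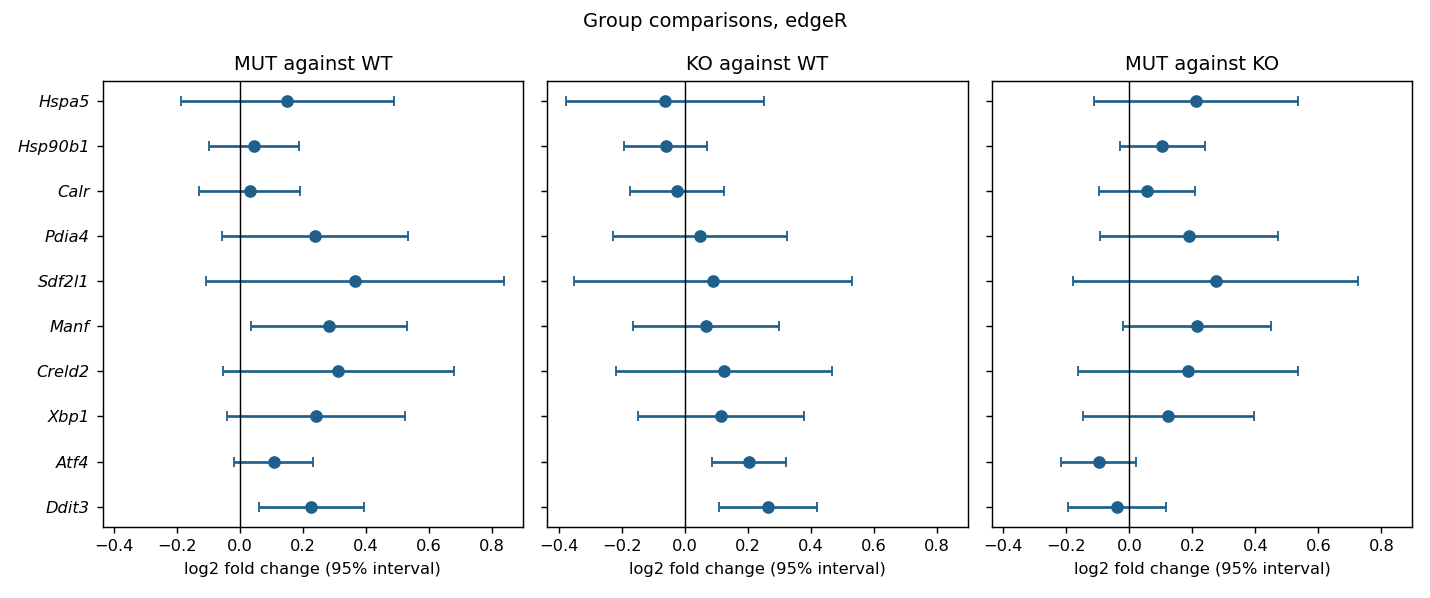
Log2 fold change of each gene (horizontal axes) with its 95% interval from edgeR, for MUT against WT, KO against WT and MUT against KO. In KO against WT the intervals of Atf4 and Ddit3 lie above 0, and in MUT against WT those of Manf and Ddit3 do. None has an adjusted p below 0.05.

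Libraries of the same group differed widely in the level of the 10 genes. The mean of the 10 genes, as log2 CPM after subtracting the gene's own 12-library mean, was 0.15, 0.26, 0.05 and -0.03 in MUT replicates 1 to 4, 0.12, 0.12, -0.30 and -0.02 in KO, and 0.08, -0.18, -0.05 and -0.19 in WT. MUT replicate 2 was the highest of the 12 libraries for 7 of the 10 genes, and KO replicate 3 the lowest for 8. WT replicates 2 and 4 were each among the lowest 3 libraries for 8 of the 10.

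KO replicate 3 was the library with the highest choroid plexus marker level, 3.27 on the same centred scale, with 11 of 15 markers tested and a summed level of 242 to 2279 CPM in MUT, 245 to 2894 CPM in KO and 268 to 1237 CPM in WT. MUT replicate 1 and WT replicate 4 also had high marker levels, 2.94 and 2.15, and there the mean of the 10 genes was 0.15 and -0.19. KO replicate 3 was also the highest of the MUT and KO libraries in striatal markers, at 0.18 against -0.91 to -0.37. In oligodendrocyte markers it was the highest of all libraries, at 0.34. The striatal levels of WT replicates 2, 3 and 4 were 0.74, 1.67 and 2.58. The part of any of these tissues or cells in the low value of KO replicate 3 was not tested. Without KO replicate 3 the number of genes above 0 in KO against WT was 9 of 10, with a median log2 fold change of 0.18, and 0 of 10 were called, where 0.0261% of all genes were. In MUT against KO without it, 6 of 10 were above 0, with a median of 0.03. Without the 3 libraries high in choroid plexus markers, 9 of 10 genes were above 0 in MUT against WT, with a median of 0.17, and 8 of 10 in KO against WT, with a median of 0.14.

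**Figure D3:**
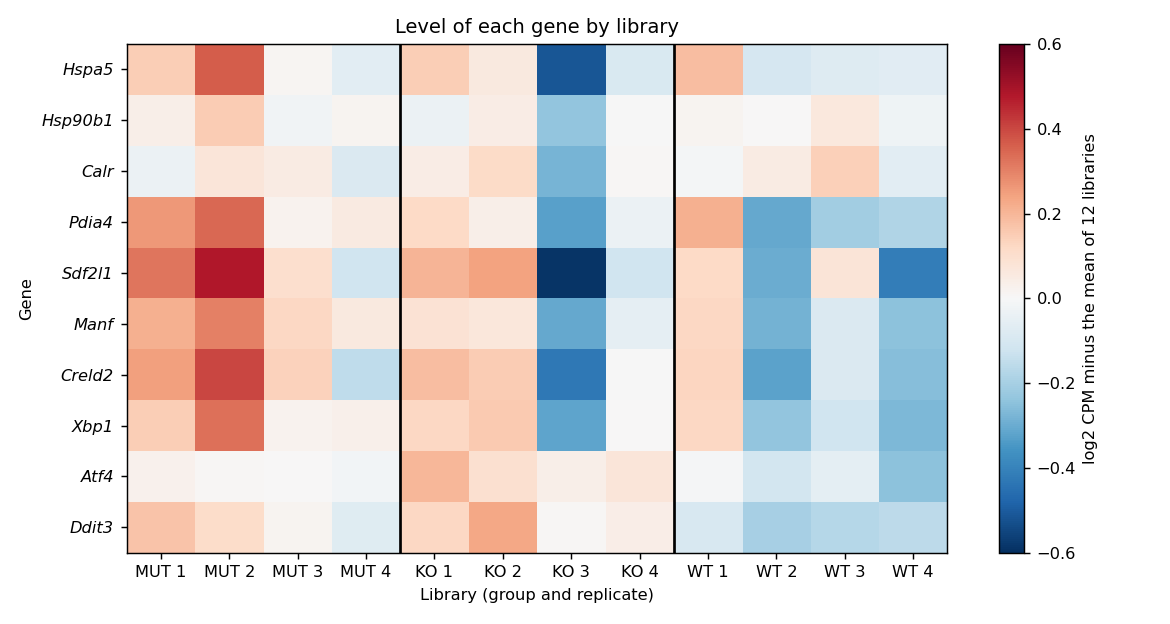
Log2 CPM of each gene (rows) in each library (columns, MUT, KO and WT replicates 1 to 4) minus that gene's mean over the 12 libraries, in colour from -0.6 (blue) to 0.6 (red). The columns of KO 3, WT 2 and WT 4 are blue for most genes, with means of -0.30, -0.18 and -0.19, and that of MUT 2 is above the gene's mean for all 10, only just so for Atf4, with a mean of 0.26.

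The 10 genes did not all move alike. Across the 12 libraries the 28 pairs among the 7 ER proteins and Xbp1 had a median Pearson r of 0.85, from 0.28 (Calr with Pdia4) to 0.96 (Xbp1 with Manf). The 16 pairs of Atf4 or Ddit3 with those 8 genes had a median r of 0.47, and Atf4 with Ddit3 had r = 0.75. Of all 45 pairs, 71.1% had r above 0.5, against 8.99% of all pairs of tested genes. Xbp1 and Manf had a Spearman rho of 0.88, and Sdf2l1 and Creld2, with r = 0.96, also had rho = 0.96. Hspa5 with Hsp90b1 had r = 0.83 but rho = 0.45. With each group's mean removed, the median r over the 45 pairs was 0.75 (n = 12 libraries), so the genes also moved together within groups. Atf4 with Ddit3 then fell to r = 0.37. The 16 pairs of either with the other 8 genes ran from 0.36 (Atf4 with Hsp90b1) to 0.79 (Ddit3 with Creld2). Within groups, Atf4 and Ddit3 were thus no closer to each other than to most of the other 8. Points in these correlations share libraries and depth, and the values are descriptions with no test.

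The 15288 other tested genes were ranked by likeness to the mean of the 10 genes. Genes without a symbol and predicted genes (Gm, Rik and LOC symbols) were passed over. Of the rest, Dnajb11 had the pattern most like that mean. Dnajb11 (ERdj3) is a co-chaperone that brings unfolded proteins to BiP. It measured 70.1, 74.9, 66.7 and 63.7 CPM in MUT, 68.5, 69.0, 57.7 and 64.5 CPM in KO, and 67.8, 62.4, 63.4 and 58.9 CPM in WT. The libraries stood in the same order for Dnajb11 as for the mean of the 10 (Pearson r = 0.98, Spearman rho = 1, n = 12 libraries). Without KO replicate 3 and MUT replicate 2, the 2 libraries farthest from the median, r was 0.97, and for deviations from group means it was 0.98. The next in likeness were Zbtb40 (r = 0.93, rho = 0.93), Crem (r = 0.92, rho = 0.89), Banp (r = 0.90, rho = 0.81) and Tra2a (r = 0.89, rho = 0.92). All 5 were picked as the largest values of that ranking, so no test is given. None of these 5 genes was called in any comparison, and Dnajb11 had log2 fold changes of 0.13 in MUT against WT (SE 0.08, edgeR adjusted p = 0.559) and 0.04 in KO against WT (SE 0.07, adjusted p = 0.797).

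**Figure D4:**
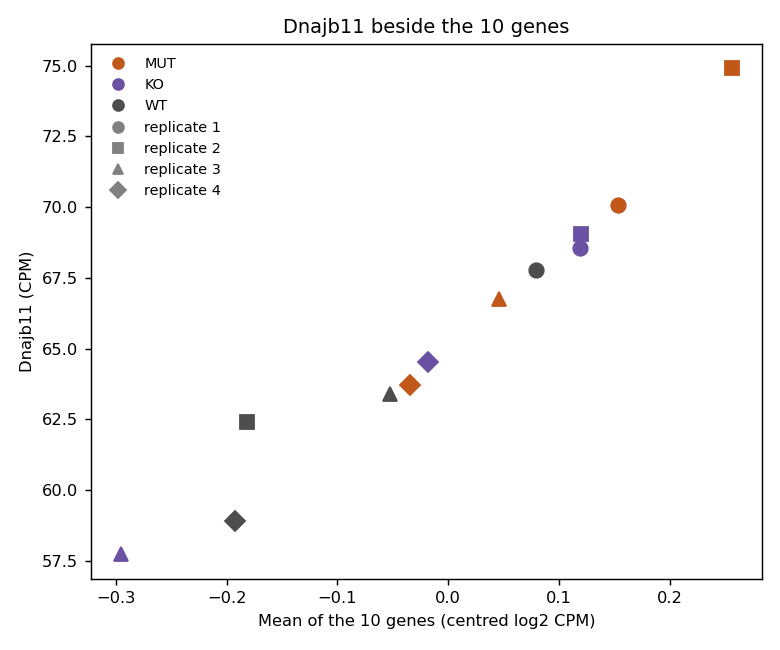
Dnajb11 in CPM (vertical axis) against the mean of the 10 genes in centred log2 CPM (horizontal axis), 1 point for each of the 12 libraries, coloured by group and shaped by replicate. The points rise in a single order from KO replicate 3 at 57.7 CPM to MUT replicate 2 at 74.9 CPM, and the groups are interleaved.

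The comparison of KO with WT depended on which libraries were set against each other. Among libraries labelled male, KO replicates 1 and 2 (308 and 282 days) were compared with WT replicates 2, 3 and 4 (375 days). There 9 of 10 genes were above 0, with a median log2 fold change of 0.30, and Pdia4, Ddit3, Atf4, Xbp1, Manf and Creld2 rose past the threshold (6 of 10, where 7.78% of all genes were called by edgeR). Xbp1 was at 0.35 (adjusted p = 0.0166) and Creld2 at 0.39 (adjusted p = 0.0384). Among libraries labelled female, KO replicates 3 and 4 were compared with WT replicate 1 (287 days). There 8 of 10 genes were below 0, with a median of -0.28, Hspa5 was at -0.47 and Sdf2l1 at -0.46, and none was called, where 0.0131% of all genes were. The only WT library labelled female is replicate 1, so the values among libraries labelled female, and any difference between the labelled sexes, rest on that library, which is assumed to vary like those of the other groups. With that limit, a test of the difference in the KO effect in a single edgeR fit gave 0 of 10 genes past an adjusted p of 0.05, where 0.732% of all genes passed. At an unadjusted p below 0.05 there were 7 of 10, where 15.6% of all genes lay, and the lowest adjusted p was 0.0751, for Pdia4, whose difference was 0.70 on the log2 scale. Within WT, labelled sex, age and striatal marker level all divide replicate 1 from the other 3 libraries and cannot be told apart.

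Age was nearer in animals under 310 days, which leave WT replicate 1 as the only WT library. There 2 of 10 genes were above 0 in KO against WT, Atf4 and Ddit3, with a median of -0.20 over the 10, and 6 of 10 in MUT against WT, with a median of 0.0032. With the striatal marker level as a term the medians were 0.08 in MUT against WT and -0.10 in KO against WT. Here too only WT replicate 1 lay within the range of MUT and KO in that level, so these medians lean on it. Ddit3 stayed above 0 in MUT against WT and in KO against WT in each of 27 other settings, between 0.11 and 0.29 in MUT and between 0.12 and 0.36 in KO. In KO it was called by edgeR in 2 of them, among libraries labelled male and without WT replicate 1, and in MUT in none. Without WT replicate 1, 10.6% of all genes were called in KO against WT. Atf4 in KO against WT was above 0 in each of the 27, from 0.06 to 0.29, and was called in 3, the same pair and DESeq2. Without WT replicate 1, Manf was called in MUT against WT at 0.47 (adjusted p = 0.0267), where 6.76% of all genes were called.

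**Figure D5:**
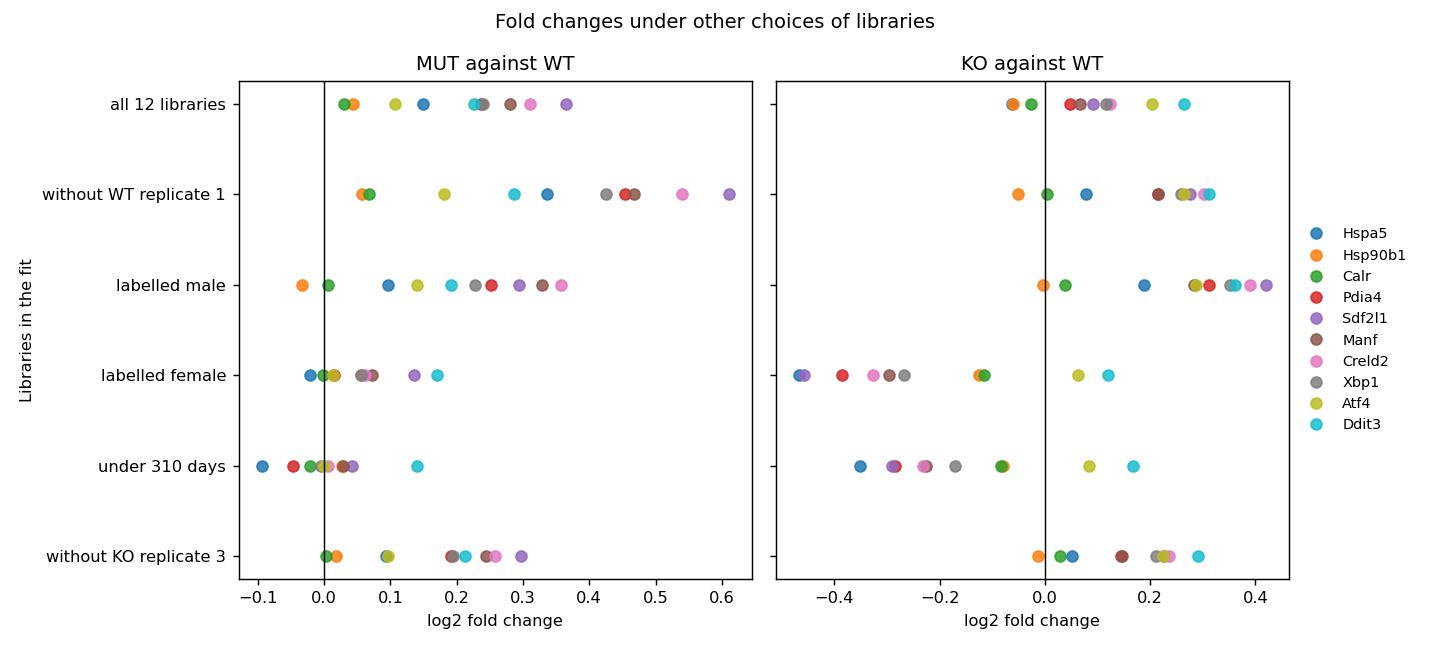
Log2 fold change of each of the 10 genes (points, coloured by gene) in MUT against WT and KO against WT, with all 12 libraries and with 5 other choices of libraries (rows). In KO against WT the points lie mostly above 0 among libraries labelled male (median 0.30) and mostly below 0 among libraries labelled female (median -0.28) and under 310 days (median -0.20).

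The rest of the pathway was described through 107 further genes in 5 lists, of which 104 were tested. None passed an adjusted p of 0.05 in any comparison by edgeR or limma-voom. At an unadjusted p below 0.05 there were 10 of 104 in MUT against WT (9.62%, where 10.9% of all genes lay), 27 in KO against WT (26%, where 17.6% lay) and 7 in MUT against KO (6.73%, where 5.67% lay). DESeq2 called 5 of them in KO against WT (Atf6, Fam8a1, Sec11c, Slc3a2 and Ppp1r15a), or 4.81%, where it called 4.23% of all genes, and none in the other comparisons. The DESeq2 share and the unadjusted shares in MUT against WT and MUT against KO were thus near those of all genes. Beside the counts above 0 given below, 51% of all genes were above 0 in MUT against WT and 51.3% in KO against WT. Both comparisons use the same WT libraries, so like counts in both are not separate evidence. The counts are from the fit reported, and for the 10 genes such counts changed with the libraries and terms.

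The list of eIF2alpha kinases and integrated stress response targets had 23 of 32 tested members above 0 both in MUT against WT, with a median log2 fold change of 0.06, and in KO against WT, with a median of 0.07. Gdf15 and Fgf21 did not pass the filter. Ppp1r15a (GADD34), the phosphatase subunit that reverses eIF2 phosphorylation, averaged 13.4 ± 1.74 CPM in KO and 10.4 ± 0.551 CPM in WT (SD, n = 4 each; log2 fold change 0.33, edgeR adjusted p = 0.0758). Mthfd2, a mitochondrial folate enzyme induced by ATF4, averaged 11.3 ± 0.509 CPM in KO and 9.03 ± 0.366 CPM in WT (0.33, adjusted p = 0.0886). These are values near the threshold, as for Atf4 and Ddit3, and the 2 genes were picked for the smallest p of the list. The other members did not all move alike in KO against WT, and those named next are examples from both sides, not picked by a rule. Slc3a2 was at 0.20 (edgeR adjusted p = 0.0895), Atf5 at 0.25 (adjusted p = 0.107), Phgdh at 0.21 (adjusted p = 0.141) and Cebpb at 0.36 (adjusted p = 0.241). Trib3, of very low level, was at -0.67 (edgeR adjusted p = 0.276), Slc7a11 at -0.19 and Ddit4 at -0.06. Asns was at 0.0044, Atf3 at 0.014 and Chac1 at 0.06. In MUT against WT the smallest p belonged to Slc3a2, the heavy chain of amino acid transporters, at 138 ± 3.35 CPM in MUT and 121 ± 9.07 CPM in WT (0.18, adjusted p = 0.393).

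The ER chaperone and folding list had 14 of 21 members above 0 in MUT against WT (median 0.04) and 11 of 21 in KO against WT (median 0.00022). Its members with the smallest p in both were Cnpy2, at 0.16 in MUT and 0.18 in KO against WT, and Pdia5, a disulfide isomerase of low level, at -0.43 and -0.53. The sensor list had 6 of 10 and 5 of 10 members above 0. Atf6, the sensor that is cleaved into a factor, averaged 106 ± 7.495 CPM in MUT, 104 ± 8.18 CPM in KO and 123 ± 8.70 CPM in WT, with log2 fold changes of -0.14 (adjusted p = 0.452) in MUT against WT and -0.22 (adjusted p = 0.0996) in KO against WT. Rtcb, the ligase that joins spliced Xbp1, was at 0.15 in MUT against WT (adjusted p = 0.395).

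The list of ER-associated degradation, which returns misfolded proteins to the cytosol for the proteasome, had 10 of 18 members above 0 in MUT against WT and 11 of 18 in KO against WT, with medians of 0.03 in both. Fam8a1, a cofactor of the Hrd1 ubiquitin ligase complex, had the smallest p in both, at 43.0 ± 2.44 CPM in MUT, 42.2 ± 2.22 CPM in KO and 49.4 ± 0.988 CPM in WT (log2 fold changes against WT of -0.22 in MUT, adjusted p = 0.359, and -0.24 in KO, adjusted p = 0.0653). The list of translocation and transport, with 23 of 24 members tested, had 15 above 0 in MUT against WT and 13 in KO against WT, with medians of 0.03. Sec11c, a catalytic subunit of the signal peptidase, averaged 46.7 ± 2.15 CPM in MUT, 52.2 ± 3.99 CPM in KO and 43.8 ± 1.29 CPM in WT, with a log2 fold change of 0.27 in KO against WT (adjusted p = 0.0653) and -0.15 in MUT against KO (adjusted p = 0.841).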

How the data were processed

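The authors deposited a table of raw read counts per gene with summed exon length, in the layout of featureCounts per the file headers. Libraries were directional (NEBNext Ultra II), per the labels' protocols. The aligner, the counter and its use of strand were not given in the sources used here. DESeq2 1.34.0, R 4.1.2 and the build mm10 are named in the submitters' processing notes. The 10 genes, the lists and the rule for named genes (all 10, the 2 members of each further list with the smallest p, and the 5 genes with the most similar pattern) were chosen with earlier results of these data known.

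Genes were kept with filterByExpr by group (minimum count 10, minimum total 15), leaving 15298. TMM scaling was followed by a fit with edgeR 4.0.16 (R 4.3.3; robust quasi-likelihood, groups and labelled sex, all 12 libraries, 8 residual degrees of freedom), with Benjamini-Hochberg adjustment and a threshold of 0.05. RPKM used the deposited exon length. Centred levels are log2 CPM with a prior count of 2. Between any 2 libraries, chi-square per degree of freedom was at least 3.55, so no pair agreed within sampling noise. Alternatives were DESeq2 1.42.0, limma-voom (limma 3.58.1), other scalings, filters and covariates, a trend on exon length removed (spline, 4 degrees of freedom), subsets of libraries, each library left out, and, chosen after seeing the data, a fit without robust shrinkage, since the robust setting was itself set after the data were seen. Promoter windows are RefSeq's (GRCm38.p6).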

Additional observations from a re-analysis of the deposited data

Results flagged for a closer look

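Hspa5 in WT replicate 1 stood apart from its group, at 368 CPM against 302 to 309 CPM in the other WT libraries. Its gap to the nearest library was 0.887 of the group's range, above Dixon's 95% critical value for 4 samples. Of 30 groups of 4 values looked at (10 genes in 3 groups) this was the only one past that value, and chance gives about 1 in 20. WT replicate 1 was also the only WT library of 287 days and the lowest of the WT libraries in striatal markers, and the part of either in its Hspa5 level was not tested. Without it, Hspa5 was at 0.34 in MUT against WT (adjusted p = 0.302) and at 0.08 in KO against WT (adjusted p = 0.796), by edgeR.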

How the results depend on the processing

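The numbers of genes called moved with the libraries and terms chosen. In MUT against WT, 2 genes were called in the fit reported, 52 by DESeq2, 6 with no sex term and 313 among libraries labelled male. In KO against WT, 75 were called in the fit reported, 647 by DESeq2, 294 with no sex term, 1190 among libraries labelled male, 15 with the length trend removed, 9 in animals under 310 days, 2 each with sex and age as terms, among libraries labelled female and without the 3 libraries high in choroid plexus genes, and 1 with the striatal level as a term. In MUT against KO, 1 gene was called in the fit reported, 15 by DESeq2, 2 with sex and age as terms, 2 among libraries labelled male and 39 in animals under 310 days. Leaving out each library in turn gave 2 to 1034 genes in MUT against WT, 1 to 1629 in KO against WT and 1 to 18 in MUT against KO, the highest in both comparisons with WT being without WT replicate 1 and in MUT against KO without WT replicate 3. In KO against WT the count was 171 without WT replicate 3, and between 1 and 11 without any 1 of WT replicates 2 and 4, MUT replicates 2, 3 and 4, and KO replicates 1, 2 and 3. Of the 10 genes, 0 to 1 were then called in MUT against WT, 0 to 2 in KO against WT and 0 in MUT against KO. DESeq2 called 1 of the 10 in KO against WT, and libraries labelled male gave 6. The causes were not tested.

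Replicate numbers did not pair the libraries: deviations of same-numbered libraries correlated at -0.38 to 0.29, with 1 of 12 pairs over 0.1. With the replicate block, 2 genes were called in MUT against WT, 2 in KO against WT and 1 in MUT against KO, and 0 of the 10 genes in each.

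Log2 fold changes of the 10 genes changed sign as follows, none of them called in the fit reported. MUT against WT among libraries labelled male gave Hsp90b1 -0.034. KO against WT among libraries labelled male gave Hspa5 0.19 and Calr 0.038. MUT against KO among libraries labelled male gave Hspa5 -0.093, Hsp90b1 -0.031, Calr -0.032, Pdia4 -0.060, Sdf2l1 -0.13, Xbp1 -0.12 and Creld2 -0.033. MUT against WT without the 3 libraries high in choroid plexus genes gave Calr -0.020. KO against WT without the 3 libraries high in choroid plexus genes gave Hspa5 0.042. MUT against KO without the 3 libraries high in choroid plexus genes gave Calr -0.015 and Xbp1 -0.0041. KO against WT scaled by library size alone gave Calr 0.00081. MUT against WT with sex and age as terms gave Hspa5 -0.14, Hsp90b1 -0.027, Calr -0.062, Pdia4 -0.065, Sdf2l1 -0.038, Xbp1 -0.061 and Creld2 -0.032. KO against WT with sex and age as terms gave Pdia4 -0.33, Sdf2l1 -0.41, Xbp1 -0.26, Manf -0.27 and Creld2 -0.30. MUT against WT among libraries labelled female gave Hspa5 -0.021 and Calr -0.0016. KO against WT among libraries labelled female gave Pdia4 -0.39, Sdf2l1 -0.46, Xbp1 -0.27, Manf -0.30 and Creld2 -0.33. MUT against KO among libraries labelled female gave Ddit3 0.050. MUT against WT in animals under 310 days gave Hspa5 -0.093, Calr -0.022, Pdia4 -0.047 and Xbp1 -0.0050. KO against WT in animals under 310 days gave Pdia4 -0.28, Sdf2l1 -0.29, Xbp1 -0.17, Manf -0.23 and Creld2 -0.23. MUT against WT with the striatal level as a term gave Hspa5 -0.0067 and Calr -0.051. KO against WT with the striatal level as a term gave Pdia4 -0.12, Sdf2l1 -0.16, Xbp1 -0.066, Manf -0.10 and Creld2 -0.075. MUT against WT with no sex term gave Calr -0.030. MUT against KO with the length trend removed gave Ddit3 0.016. Leaving out each library in turn, the values ran from -0.16 to 0.078 for Hspa5 in KO against WT, -0.061 to 0.029 for Calr in KO against WT, -0.048 to 0.22 for Pdia4 in KO against WT, -0.019 to 0.28 for Sdf2l1 in KO against WT, -0.027 to 0.10 for Calr in MUT against KO, -0.078 to 0.0018 for Ddit3 in MUT against KO and -0.017 to 0.18 for Xbp1 in MUT against KO. Sdf2l1, with 180 to 399 reads per library, had the fewest reads and the widest intervals.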
